A study of Mus musculus with 14 samples.

Results

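The BCL-2 family members described here are 10 genes that were taken by symbol from a deposited expression table of 14449 genes. Of these, 5 restrain apoptosis (Bcl2, Bcl2l1, Mcl1, Bcl2a1b and Bcl2a1d) and 5 promote it (Bcl2l11, Bax, Bak1, Bbc3 and Pmaip1), and each symbol was found once. The RNA came from lymph node T cells of BALB/c mice at post natal day 35, sorted as CD4+Foxp3eGFP+, so an eGFP reporter of the regulatory T cell factor Foxp3 was shared by both genotypes. Wild-type mice gave 7 libraries and Il1rn-/- mice, which lack the IL-1 receptor antagonist, gave 7. By the letter in the sample titles, 3 libraries of each genotype belong to set a and 4 of each to set b. The meaning of the letters, the sex of the mice and whether each library came from its own animal or from a pool are not given in the labels, so the p-values measure the spread between libraries, which may be partly technical. Il1rn is not in the table analysed here, and the genotype labels were therefore not checked on the targeted gene.

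The BCL-2 family sets the threshold at which mitochondria release cytochrome c and start the caspase cascade. The antiapoptotic proteins BCL-2, BCL-XL (Bcl2l1), MCL-1 and A1 (the Bcl2a1 genes) hold the pore formers BAX and BAK in check, and the BH3-only proteins BIM (Bcl2l11), PUMA (Bbc3) and NOXA (Pmaip1) bind and occupy the antiapoptotic proteins. In regulatory T cells, MCL-1 and BIM are known as the pair that governs survival, and IL-2 signalling supports MCL-1. The mRNA levels given here do not measure the proteins, several of which turn over within a short time.

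The Bcl2a1 genes are nearly identical copies, which bears on every value of Bcl2a1b and Bcl2a1d. Over 519 coding bases of the reference transcripts (GENCODE M21, GRCm38) the genes differ at 6 bases, an identity of 98.8%, and the longest identical run is 217 bases. Their first 60 coding bases are printed because reads from such a stretch separate the copies only at the capitals, which mark the 2 bases that differ. The Bcl2a1b stretch is chr9:89199360-89199419 on the plus strand and that of Bcl2a1d is chr9:88731660-88731719 on the minus strand, each within the coding part of exon 1 of 2.
Bcl2a1b: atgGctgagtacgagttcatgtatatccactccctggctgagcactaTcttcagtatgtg
Bcl2a1d: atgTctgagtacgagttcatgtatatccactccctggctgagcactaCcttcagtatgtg

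Exact matches of 32 bases to transcripts of other genes covered 88.2% of Bcl2a1b and 88.6% of Bcl2a1d. How the authors' counting assigned reads shared by such copies is not given in the sources used here. The values of both are therefore uncertain. Bak1 shared 20.3% of its 32-base stretches with 1 gene, Ggnbp1, which lies on the opposite strand over 25.5% of the Bak1 exon bases, and Bax shared 10.9%, mostly with an overlapping model on the same strand. Bcl2 shared 6.12%, mostly with the antisense gene D630008O14Rik. The other members shared less than 0.5%, and Bcl2l1 and Bbc3 shared none. Whether the counting used strand is not given in the sources used here either.

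Bcl2l11, which encodes BIM, is a textbook target of FOXO transcription factors, and its start site region is printed with the motif GTAAACA in capitals. The window is chr2:128125788-128126087 on the plus strand (RefSeq, GRCm38.p6), from 250 bases before to 50 after the start site, and the motif begins at position -227 from it.
Bcl2l11 promoter: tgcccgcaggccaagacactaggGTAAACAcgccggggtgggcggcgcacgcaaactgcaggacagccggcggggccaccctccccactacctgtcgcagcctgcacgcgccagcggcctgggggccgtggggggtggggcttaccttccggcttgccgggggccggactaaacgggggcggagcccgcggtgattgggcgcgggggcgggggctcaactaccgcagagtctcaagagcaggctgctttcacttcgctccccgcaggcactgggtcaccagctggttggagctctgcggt

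Searched on both strands, GTAAACA was found in 2 of the 14 windows of the members (those of Bcl2l11 and Bbc3, where it reads TGTTTAC on the plus strand) and in 3.65% of 32851 windows of all genes. No window of Pmaip1 is among the 14. The STAT5 motif TTCNNNGAA was found in 0 of 14 and in 8.30% of all windows, and the cyclic AMP response element TGACGTCA in 0 of 14 and 1.79%. The NF-kB consensus was in 2 windows (Bbc3 and Bcl2l1) and 4.51% of all, and the p53 half-site consensus in 1 (Bax) and 8.36%. These are descriptions of the letters in the windows, and a missing match says nothing of a factor elsewhere.

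Values are the deposited log2 CPM, a logged read count relative to library size, in which -3.58 stands for 0 reads. Recovered reads per library numbered 952021 to 3756559. The libraries fell into 6 shallow ones (all 4 wild-type of set b and Il1rn-/- 1-b and 2-b), in which the ribosomal RNA precursor Rn45s took 59.6% to 65.8% of reads, and 8 deep ones, in which it took 20.3% to 39.95%. Outside Rn45s the shallow libraries held 384360 to 905988 reads and the deep ones 1654868 to 2805693. All of set a was deep, and in set b the deep libraries were Il1rn-/- 3-b and 4-b alone. Y-linked transcripts were present, at 374 to 808 reads, in 4 deep libraries (2 wild type of set a, 1-a and 2-a, and the 2 deep Il1rn-/- of set b), and the other libraries had 0 to 2 such reads. Genotype, library group and Y-linked transcripts therefore overlap in this design, and the values below are given by library.

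Among the antiapoptotic members, Bcl2, Mcl1 and Bcl2l1 were well expressed at like levels in both genotypes, whereas the A1 genes were low and followed the library groups. Bcl2, the founding member, averaged 6.24 ± 0.58 log2 CPM over wild-type libraries and 6.20 ± 0.56 over Il1rn-/- libraries (mean ± SD, n = 7 each). In wild-type 1-a to 3-a it was 5.71, 6.57 and 7.34, and in Il1rn-/- 1-a to 3-a it was 6.83, 5.14 and 6.33. In wild-type 1-b to 4-b it was 5.84, 5.79, 6.45 and 6.01, and in Il1rn-/- 1-b to 4-b it was 6.48, 5.78, 6.33 and 6.50. The ranges overlapped in both sets, and both the highest and the lowest value of all 14 were in set a. The genotype difference, Il1rn-/- minus wild type on the log2 scale throughout, was -0.04 ± 0.26 (estimate ± SE here and below), with a 95% confidence interval of -0.60 to 0.51. In bulk RNA such as this, fewer cells of a type and less RNA per cell cannot be told apart.

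Mcl1, whose protein sequesters BIM and NOXA, varied less. It was at 6.71, 6.42 and 6.44 log2 CPM in wild-type set a and at 6.19, 6.32 and 6.79 in Il1rn-/- set a. Set b had 6.48, 6.46, 5.97 and 6.32 in wild type against 6.88, 6.14, 7.12 and 6.50 in Il1rn-/-. The highest value was in Il1rn-/- 3-b and the lowest in wild-type 3-b, with overlap in each set. The difference was 0.16 ± 0.17, with an interval of -0.19 to 0.51. Bcl2l1, which encodes BCL-XL, spanned 5.16 to 6.06 log2 CPM, with means of 5.52 ± 0.29 and 5.56 ± 0.34 (SD, n = 7 each). Its difference of 0.04 ± 0.16 had an interval of -0.30 to 0.38 and changed sign, to -0.07, when libraries were scaled to their reads outside Rn45s.

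Bcl2a1b, an A1 gene, was the antiapoptotic member with the largest genotype difference. Its log2 CPM was 3.67, 2.38 and 3.65 in wild-type set a and 3.46, 3.88 and 3.25 in Il1rn-/- set a. In set b it was 1.47, 1.12, 0.32 and 1.75 in wild type and 2.64, 1.11, 4.11 and 3.72 in Il1rn-/-. The 2 highest values of set b were those of the deep libraries Il1rn-/- 3-b and 4-b, and the shallow libraries spanned 0.32 to 2.64 against 2.38 to 4.11 in the deep ones. The shallow values rest on 1 to 10 reads per library and the deep ones on 22 to 71. The genotype difference was 1.11 ± 0.45, with an unadjusted p of 0.0225 and an adjusted p of 0.787. With the library group in place of the letter as covariate it was 0.56 ± 0.34 with an unadjusted p of 0.120, so it did not pass either way.

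Bcl2a1d, its near copy, was detected in deep libraries alone. It was listed at 0 reads in all 6 shallow libraries and had 3 to 9 reads in each deep library, 43 in all. Its log2 CPM was 1.04, 1.13 and 0.58 in wild-type set a, -0.09, 0.70 and -0.43 in Il1rn-/- set a, and 0.03 and 0.13 in Il1rn-/- 3-b and 4-b. Pooled over libraries, the deep group was at 1.31 CPM, at least 4.00-fold higher than the 0.327 CPM to which 3 reads over the shallow group would amount. In a single shallow library, however, 3 reads amount to 1.55 to 3.48 CPM, while the deep libraries were at 0.659 to 2.10 CPM, so its absence from any 1 shallow library was not detectable as a difference at this depth. These floors cover counting error only, since the reads carry no molecular identifiers and need not be independent molecules. Bcl2a1d passed the filter on low values through its deep libraries.

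**Figure D1:**
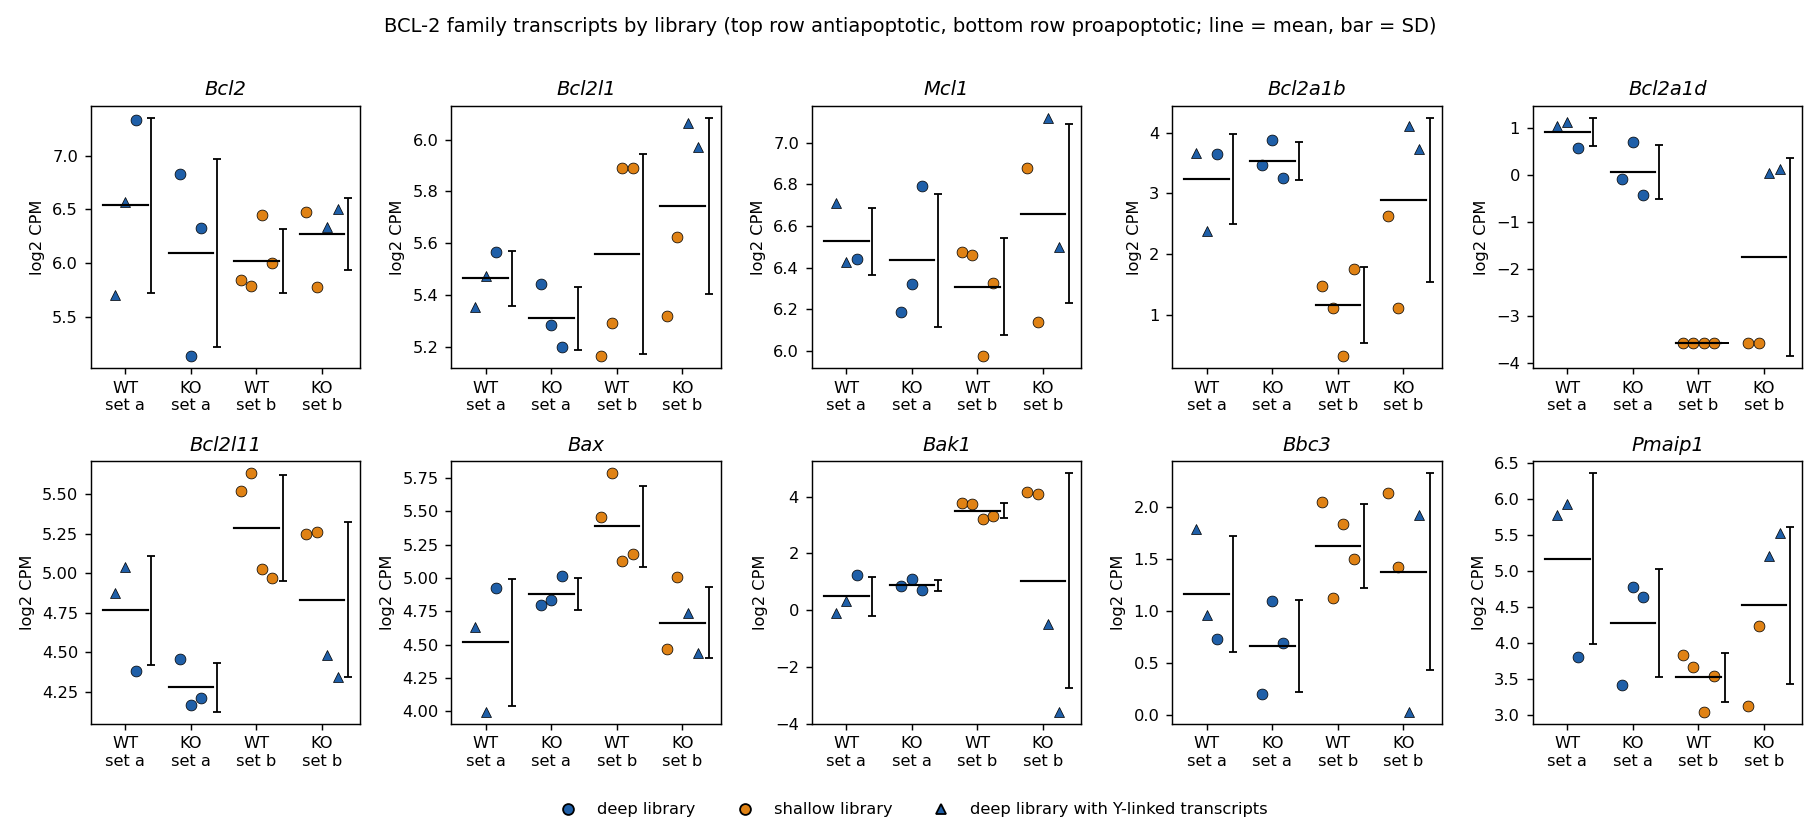
Log2 CPM (vertical axis) of each member by genotype and set, antiapoptotic members above and proapoptotic members below; points are libraries, coloured by library group, triangles mark Y-linked transcripts, lines are means and bars SD. The 6 shallow libraries hold all Bak1 values of 3.23 or more and all have Bcl2a1d at -3.58, whereas Bcl2, Bcl2l1 and Mcl1 overlap between genotypes in both sets.

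Among the proapoptotic members, Bcl2l11 was lower on average in Il1rn-/- in both sets, Bax was lower in set b alone, and Bak1 followed the library groups, all without passing the test across genes. Bcl2l11 averaged 5.06 ± 0.42 log2 CPM over wild-type libraries and 4.60 ± 0.47 over Il1rn-/- libraries (SD, n = 7 each). By library it was 4.87, 5.04 and 4.38 in wild-type set a against 4.46, 4.17 and 4.21 in Il1rn-/- set a. Set b gave 5.52, 5.63, 5.03 and 4.97 in wild type and 5.25, 5.26, 4.48 and 4.34 in Il1rn-/-. Ranges overlapped in set a through wild-type 3-a and in set b through Il1rn-/- 1-b and 2-b, the shallow ones. The difference was -0.47 ± 0.19 (unadjusted p 0.0234, adjusted p 0.787), -0.49 ± 0.30 within set a and -0.45 ± 0.26 within set b. With the library group as covariate it was -0.27 ± 0.16 with an unadjusted p of 0.120. In deep libraries the means were 4.77 ± 0.34 (SD, n = 3) in wild type and 4.33 ± 0.14 (SD, n = 5) in Il1rn-/-, and in shallow ones 5.29 ± 0.34 (SD, n = 4) and 5.26 ± 0.01 (SD, n = 2).

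Bax, one of the pore formers, had values of 4.63, 3.99 and 4.92 log2 CPM in wild-type set a and 4.80, 4.83 and 5.02 in Il1rn-/- set a. In set b the wild-type libraries had 5.46, 5.79, 5.13 and 5.18, all above the 4.47, 5.01, 4.74 and 4.43 of Il1rn-/-. The groups overlapped in set a and did not in set b. Within set b the difference was -0.72 ± 0.23 (unadjusted p 0.006, adjusted p 0.254), whereas within set a it was 0.36 ± 0.27, so the signs were opposite. The test of that contrast between sets gave -1.09 ± 0.36 with an unadjusted p of 0.007 and an adjusted p of 0.610. Over all 14 libraries the difference was -0.26 ± 0.21.

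Bak1, the other pore former, separated the library groups. It was at -0.11, 0.32 and 1.24 log2 CPM in wild-type set a and at 0.85, 1.09 and 0.70 in Il1rn-/- set a. In set b the shallow libraries had 3.76, 3.74, 3.23 and 3.32 (wild type) and 4.16 and 4.10 (Il1rn-/-), while the deep Il1rn-/- 3-b and 4-b had -0.49 and -3.58. Thus no deep library reached a shallow one. The shallow libraries held 127 Bak1 reads in all and the deeper ones 46, and the group means were 3.72 ± 0.39 (SD, n = 6) and 0.00 ± 1.57 (SD, n = 8) log2 CPM. The genotype difference of -1.24 ± 0.93 became -0.19 ± 0.62 with the library group as covariate. Within set b it was -2.47 ± 1.17 (unadjusted p 0.0497, adjusted p 0.333), where the wild-type libraries were all shallow. Whether the overlap with Ggnbp1 on the opposite strand contributes was not tested.

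Of the inducible BH3-only members, Pmaip1 varied most from library to library and Bbc3 was near the limit of detection. Pmaip1 (NOXA) was at 5.77, 5.93 and 3.80 log2 CPM in wild-type set a and at 3.41, 4.78 and 4.64 in Il1rn-/- set a. In set b it was 3.83, 3.66, 3.04 and 3.54 in wild type and 3.12, 4.23, 5.20 and 5.53 in Il1rn-/-. The 4 highest values were those of the 4 libraries with Y-linked transcripts, 5.20 to 5.93, against 3.41 to 4.78 in the other deep libraries and 3.04 to 4.23 in the shallow ones. The difference was 0.19 ± 0.43 over all libraries, -0.89 ± 0.58 within set a and 1.00 ± 0.50 within set b. The contrast between sets was 1.90 ± 0.76, with an unadjusted p of 0.0224 and an adjusted p of 0.610. Bbc3 (PUMA) had 3 to 12 reads per library and spanned 0.03 to 2.13 log2 CPM, with a difference of -0.36 ± 0.43.

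The calls among the members are set here beside those of the whole table. For the genotype difference, 0 of 10 members and 0 of 12329 genes (0%) passed an adjusted p of 0.05, by limma's intensity trend and by voom on the recovered reads. At an unadjusted p below 0.05 there were 2 members (Bcl2a1b and Bcl2l11), and 679 genes or 5.51% of the table. Within set a the adjusted test called 0% of genes, and 1.97% had an unadjusted p below 0.05, with 0 members among them. Within set b it called 0% too, and 3 members (Bcl2a1b, Bax and Bak1) were among the 15.0% of genes below an unadjusted 0.05. For the contrast between sets, 0% were called and 7.85% of genes and 2 members (Bax and Pmaip1) fell below 0.05 unadjusted. Leaving out 1 library raised the count within set b to 230 without Il1rn-/- 2-b, when Bcl2a1b passed (adjusted p 0.044), to 7 without Il1rn-/- 1-b and to 3 without wild-type 1-b, and the count within set a to 1 without wild-type 3-a.

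By side, 4 of 5 antiapoptotic members had a positive genotype difference and 4 of 5 proapoptotic members a negative one, with medians of 0.16 and -0.36, beside a median of 0.04 over all genes tested. The exceptions were Bcl2 at -0.04 and Pmaip1 at 0.19. With the library group as covariate, all 5 proapoptotic members had a negative difference, from -0.27 for Bcl2l11 to -0.13 for Bax, and the antiapoptotic members split 3 to 2. Every adjusted p of the 10 was then 1.00. In set a the antiapoptotic members had 1 positive and 4 negative differences, and in set b 5 positive and 0 negative. The wild-type libraries of set b were all shallow. Bcl2a1d counts as positive over all libraries (0.68) and in set b (1.83), but had 0 reads in every shallow library. Its difference over all libraries was 0.07 when 1 was added to each CPM before logging. The proapoptotic members had 2 positive and 3 negative in set a and 1 positive and 4 negative in set b.

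**Figure D2:**
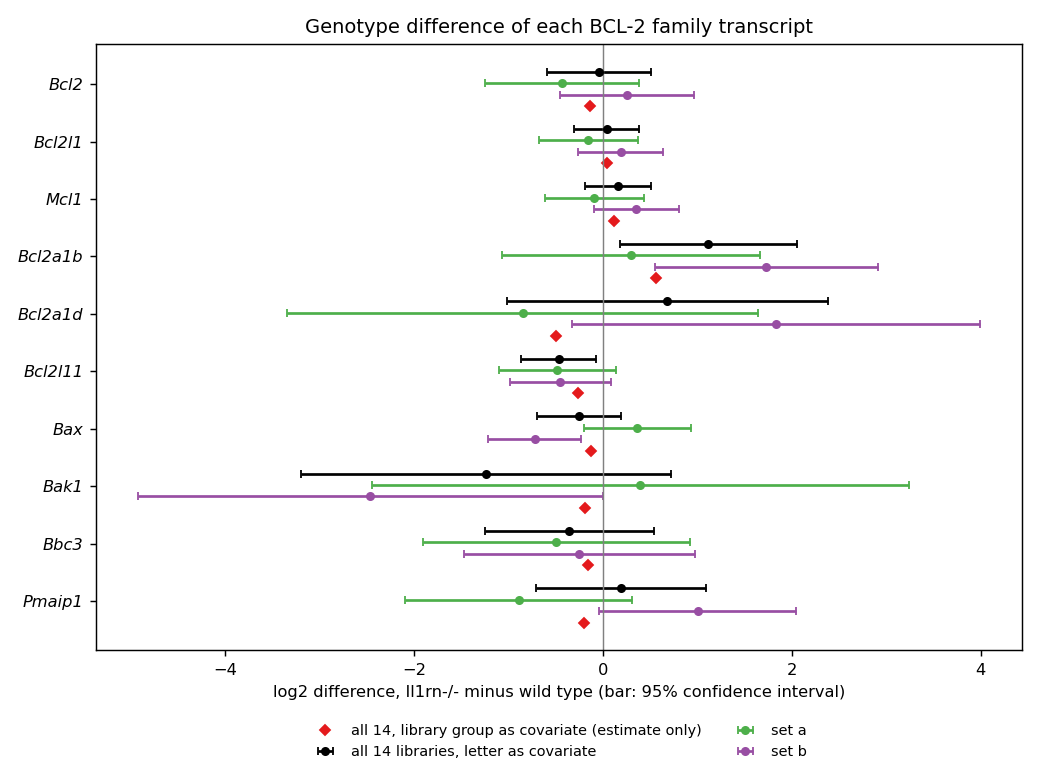
Log2 difference of Il1rn-/- minus wild type (horizontal axis) for each member; bars are 95% confidence intervals and diamonds are estimates with the library group as covariate. The interval over all 14 libraries excludes 0 for Bcl2a1b (0.18 to 2.05) and Bcl2l11 (-0.86 to -0.07), neither of which passed after adjustment, and the estimates of Bax and Pmaip1 lie on opposite sides of 0 in the 2 sets.

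Counting ranges rather than tests, 0 of 10 members separated the genotypes across all 14 libraries, beside 0.0324% of genes tested. In set a there were 0 members beside 7.97% of genes, and in set b 1 member (Bax, lower in Il1rn-/-) beside 4.28%. Among deep libraries 0 members separated the genotypes beside 1.86% of genes. Among shallow libraries 2 did, Bax lower at 4.47 and 5.01 against 5.13 to 5.79 and Bak1 higher at 4.10 and 4.16 against 3.23 to 3.76, beside 11.5% of genes. Between deep and shallow libraries Bak1, lower in the deep group, did not overlap, beside 14.9% of genes. Bcl2a1d, at its lowest possible value in every shallow library, is not counted. Within the deep group, 3 members separated the libraries with Y-linked transcripts from those without, beside 4.92% of genes. They were Pmaip1, higher with them, Bax, at 3.99 to 4.74 against 4.80 to 5.02, and Bak1, at -3.58 to 0.32 against 0.70 to 1.24. The Bak1 values rest on 0 to 5 reads per library against 7 to 13. Whether sex or another property of these libraries bears on them was not tested.

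The library groups accounted for more of the members' variance than genotype did in 9 of the 10. The share of variance over the 14 libraries that lay between deep and shallow groups was 96.1% for Bcl2a1d, where it rests on the value that stands for 0 reads, 75.7% for Bcl2a1b, 72.6% for Bak1 and 67.5% for Bcl2l11. It was 46.5% for Pmaip1, 33.2% for Bax, 32.6% for Bbc3, 9.67% for Mcl1 and 7.13% for Bcl2, whereas for Bcl2l1 it was 0.062%, below the 0.457% between genotypes. Genotype reached 24.6% for Bcl2l11 and 21.4% for Bcl2a1b and stayed under 10% for the other members. The 2 groupings are not independent, as 5 of the 7 Il1rn-/- libraries and 3 of the 7 wild-type libraries were deep.

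**Figure D3:**
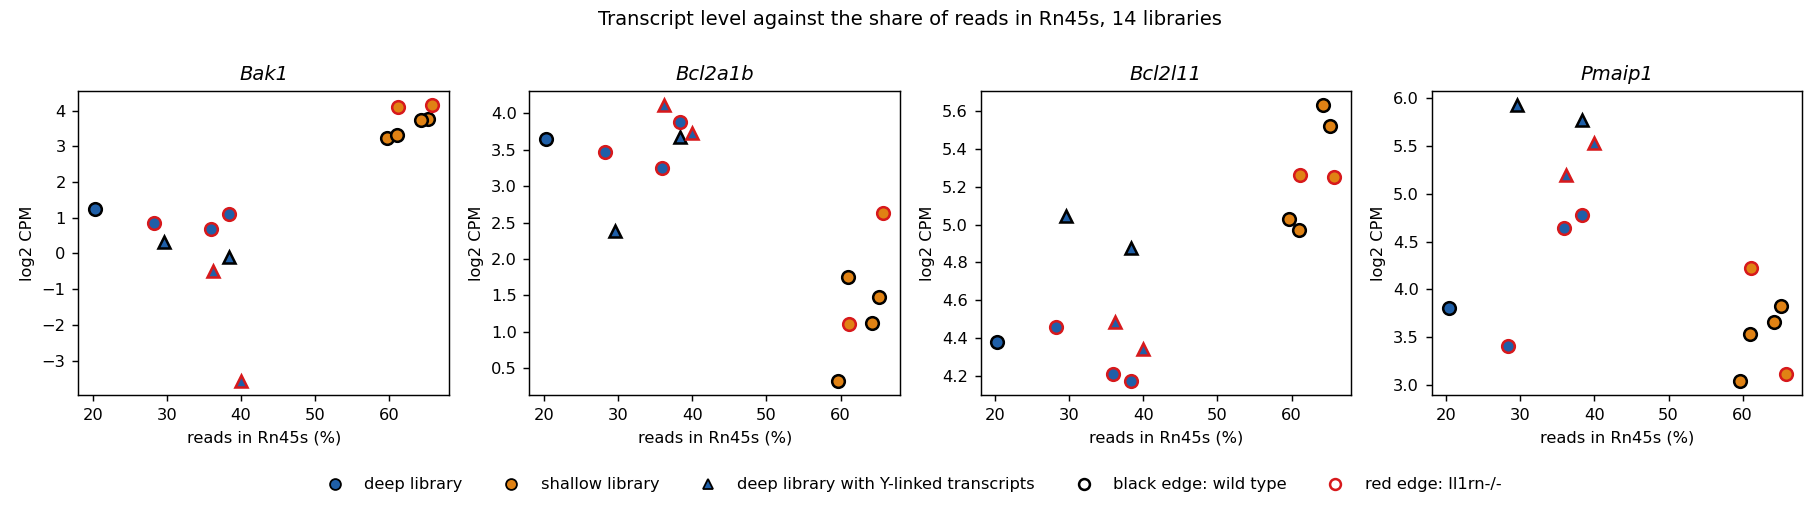
Log2 CPM (vertical axis) of 4 members against the share of reads in Rn45s (horizontal axis, percent) in 14 libraries, coloured by library group and edged by genotype, with triangles for Y-linked transcripts. Bak1 and Bcl2l11 sit higher and Bcl2a1b and Pmaip1 lower in the 6 libraries with 59.6% or more of reads in Rn45s, with gaps between groups for Bak1 and overlap for the other 3.

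Set b minus set a, the term for the letter, passed for 2408 genes or 19.5% (1046 higher and 1362 lower in set b). Centring the libraries on their medians gave 1195 higher and 1085 lower, and moved the median of all genes from -0.11 to -0.060. The calls were 8.48% of genes higher and 11.0% lower in set b. Of the members, Bcl2a1b was called, and fell by 1.35 ± 0.45 on the log2 scale in set b (adjusted p 0.044), a call that ended with centring (adjusted p 0.054), with voom (0.156) and when any 1 library other than Il1rn-/- 3-a, 3-b or 4-b was left out. Bcl2a1d is not counted as a call, because it passed the filter on low values through its deep libraries and its fitted difference depends on the prior count. Bcl2l11 stood just outside the threshold at 0.54 ± 0.19 (adjusted p 0.055), and Bak1 at 1.60 ± 0.94 was well outside (adjusted p 0.241). Bcl2l11 passed with centring (adjusted p 0.041) and without Il1rn-/- 3-b (0.033) or 4-b (0.020), and Bak1 without Il1rn-/- 4-b (0.007). The count of all genes fell to 1570 without wild-type 1-a and to 1355 without wild-type 2-a. With the library group added to the model, the letter called 12 genes and 0 members, with Bcl2a1b at 0.29.

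Per length, the order of the members was taken within library groups and genotypes. In wild-type deep libraries the median CPM per kilobase of the longest coding transcript was 25.4 for Mcl1, 22.5 for Bax, 17.3 for Bcl2l1, 15.3 for Bcl2a1b and 13.2 for Bcl2. Pmaip1, whose median lay between those of Bax and Bcl2l1, ranged from 5.09 to 22.3. Bcl2l11 followed at 5.80, then Bcl2a1d at 2.28, Bbc3 at 1.03 and Bak1 at 0.489. From Mcl1 to Bcl2 the ranges over the 3 libraries overlapped between neighbours, apart from Bcl2a1b and Bcl2l1 (6.28 to 15.5 against 15.9 to 18.4), so that part of the order is not firm. With all exon bases as the length, Bcl2l1 was at 9.66, below Bcl2 at 10.3. The ranges of Bcl2 and Bcl2l11 and of Bcl2l11 and Bcl2a1d did not overlap, while those of Bcl2a1d, Bbc3 and Bak1 overlapped between neighbours. In wild-type shallow libraries Bax led at 36.4, ahead of Mcl1 at 24.6 and Bcl2l1 at 19.1, without overlap between the ranges of Bax (31.7 to 50.1) and Mcl1 (18.4 to 26.0). Bak1 was at 4.84 there, above Pmaip1 at 4.41 and Bcl2a1b at 2.93. In Il1rn-/- libraries Mcl1 led and Bax followed in both groups, at 26.4 and 25.2 in the deep and at 27.5 and 24.6 in the shallow ones.

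The balance of the sides was taken per library as the mean log2 CPM of the 5 antiapoptotic members minus that of the 5 proapoptotic ones, a difference that library scaling does not alter apart from the prior count. It was 1.10, 1.14 and 1.70 in wild-type set a and 1.62, 1.07 and 1.18 in Il1rn-/- set a. In set b it was -1.05, -0.97, -0.64 and -0.42 in wild type and -0.28, -0.99, 1.94 and 2.04 in Il1rn-/-. The deep libraries thus lay at 1.07 to 2.04 and the shallow ones at -1.05 to -0.28, without overlap. By genotype the balance was 0.12 ± 1.15 over wild-type and 0.94 ± 1.15 over Il1rn-/- libraries (SD, n = 7 each), a gap smaller than the SD. Within deep libraries it was 1.31 ± 0.33 (SD, n = 3) and 1.57 ± 0.44 (SD, n = 5), and within shallow ones -0.77 ± 0.29 (SD, n = 4) and -0.63 ± 0.50 (SD, n = 2).

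The low members carried much of that separation. Without Bcl2a1d, Bak1 and Bbc3, whose mean log2 CPM was under 2, the balance spanned 0.22 to 1.38 in deep libraries and -0.36 to 1.05 in shallow ones, so the groups overlapped. By genotype it was then 0.29 ± 0.56 over wild-type and 0.78 ± 0.48 over Il1rn-/- libraries (SD, n = 7 each). Mcl1 minus Bcl2l11, the MCL-1 and BIM pair, was 1.84, 1.38 and 2.06 in wild-type set a and 1.73, 2.15 and 2.58 in Il1rn-/- set a. It was 0.96, 0.83, 0.95 and 1.35 in wild-type set b against 1.63, 0.88, 2.64 and 2.15 in Il1rn-/- set b. The ranges overlapped in both sets, and the group means were 1.34 ± 0.47 and 1.97 ± 0.61 (SD, n = 7 each). Deep libraries averaged 1.76 ± 0.35 (SD, n = 3) in wild type and 2.25 ± 0.37 (SD, n = 5) in Il1rn-/-, and shallow ones 1.02 ± 0.23 (SD, n = 4) and 1.25 ± 0.53 (SD, n = 2).

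Bcl2 minus Bcl2l11 averaged 1.18 ± 0.94 over wild-type and 1.60 ± 0.70 over Il1rn-/- libraries (SD, n = 7 each), and ran from 0.15 in wild-type 2-b to 2.95 in wild-type 3-a. Within deep libraries it was 1.77 ± 1.08 (SD, n = 3) in wild type and 1.89 ± 0.55 (SD, n = 5) in Il1rn-/-. Shallow ones gave 0.73 ± 0.60 (SD, n = 4) and 0.87 ± 0.50 (SD, n = 2). Bcl2 minus Bax averaged 1.23 ± 0.97 and 1.44 ± 0.69 (SD, n = 7 each), with a difference of means of either sign by set, 2.02 ± 0.82 against 1.22 ± 0.87 in set a (SD, n = 3 each) and 0.63 ± 0.57 against 1.61 ± 0.60 in set b (SD, n = 4 each). The gap in set b, where the wild-type libraries were all shallow, was larger than either SD. Within deep libraries Bcl2 minus Bax was 2.02 ± 0.82 (SD, n = 3) in wild type and 1.46 ± 0.72 (SD, n = 5) in Il1rn-/-. Shallow ones gave 0.63 ± 0.57 (SD, n = 4) and 1.39 ± 0.87 (SD, n = 2). Mcl1 minus Pmaip1 averaged 2.18 ± 1.01 and 2.15 ± 0.90 (SD, n = 7 each), and its lowest value was 0.50 in wild-type 2-a. It ran opposite to the balance between library groups, at 1.68 ± 0.84 in deep (SD, n = 8) and 2.81 ± 0.59 in shallow libraries (SD, n = 6).

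**Figure D4:**
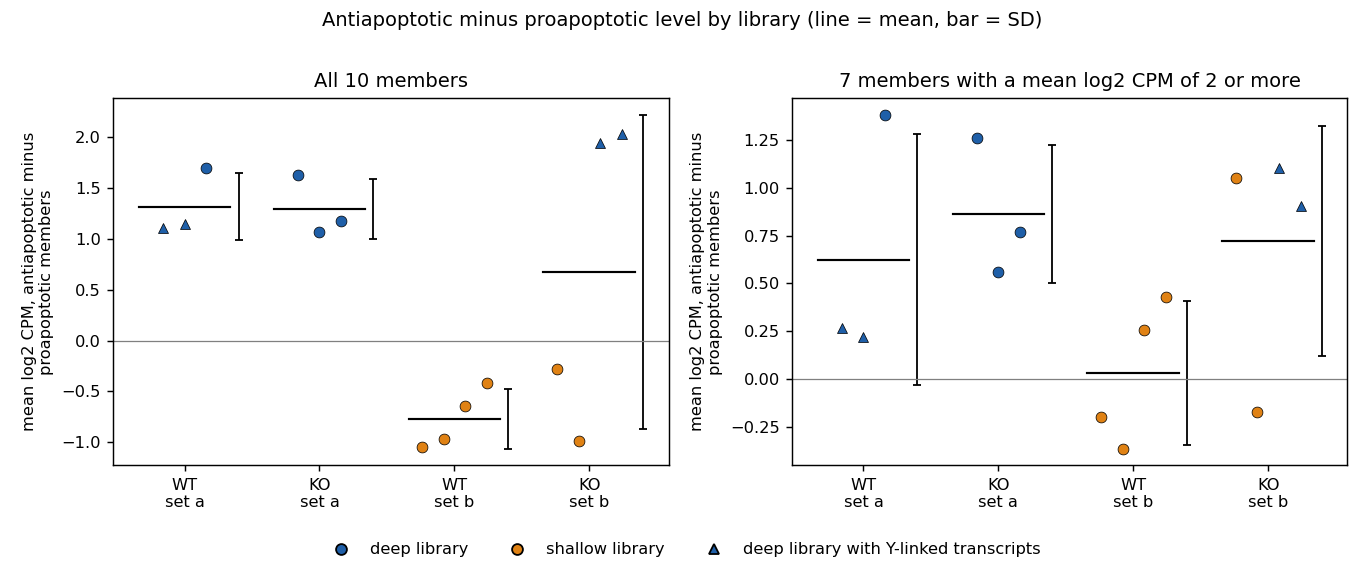
Mean log2 CPM of antiapoptotic minus proapoptotic members (vertical axis) by genotype and set, for all 10 members (left) and for the 7 whose mean was at least 2 (right); points are libraries, lines means and bars SD. On the left the deep libraries lie at 1.07 to 2.04 and the shallow ones at -1.05 to -0.28, and on the right the library groups overlap.

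Correlations among the members over the 14 libraries, which share depth and library group, are given as descriptions. The strongest on the deposited scale was between Bcl2a1b and Bcl2a1d at a Pearson's r of 0.83, and the most negative was between Bcl2a1d and Bak1 at -0.82. Bcl2l11 ran against Bcl2a1b at -0.79 and with Bak1 at 0.71. After the mean of each genotype by library group was subtracted, these 4 values became 0.05, -0.10, -0.13 and -0.12. Bcl2a1d was at the value for 0 reads in all 6 shallow libraries. Its r values on the deposited scale therefore largely separate libraries with reads from those without. Bcl2a1b also shared 71.5% of its 32-base stretches with Bcl2a1d. After the subtraction, the values farthest from 0 were Bcl2 with Bcl2a1d at -0.69, Bcl2 with Pmaip1 at -0.60 and Mcl1 with Bcl2a1b at 0.60. The value for Bcl2 with Bcl2a1d rests on the 8 deep libraries, at 3 to 9 Bcl2a1d reads each, since Bcl2a1d did not vary among the shallow ones. Mcl1 with Bcl2a1b was alone in keeping its size, at 0.56 before, among the pairs named here.

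**Figure D5:**
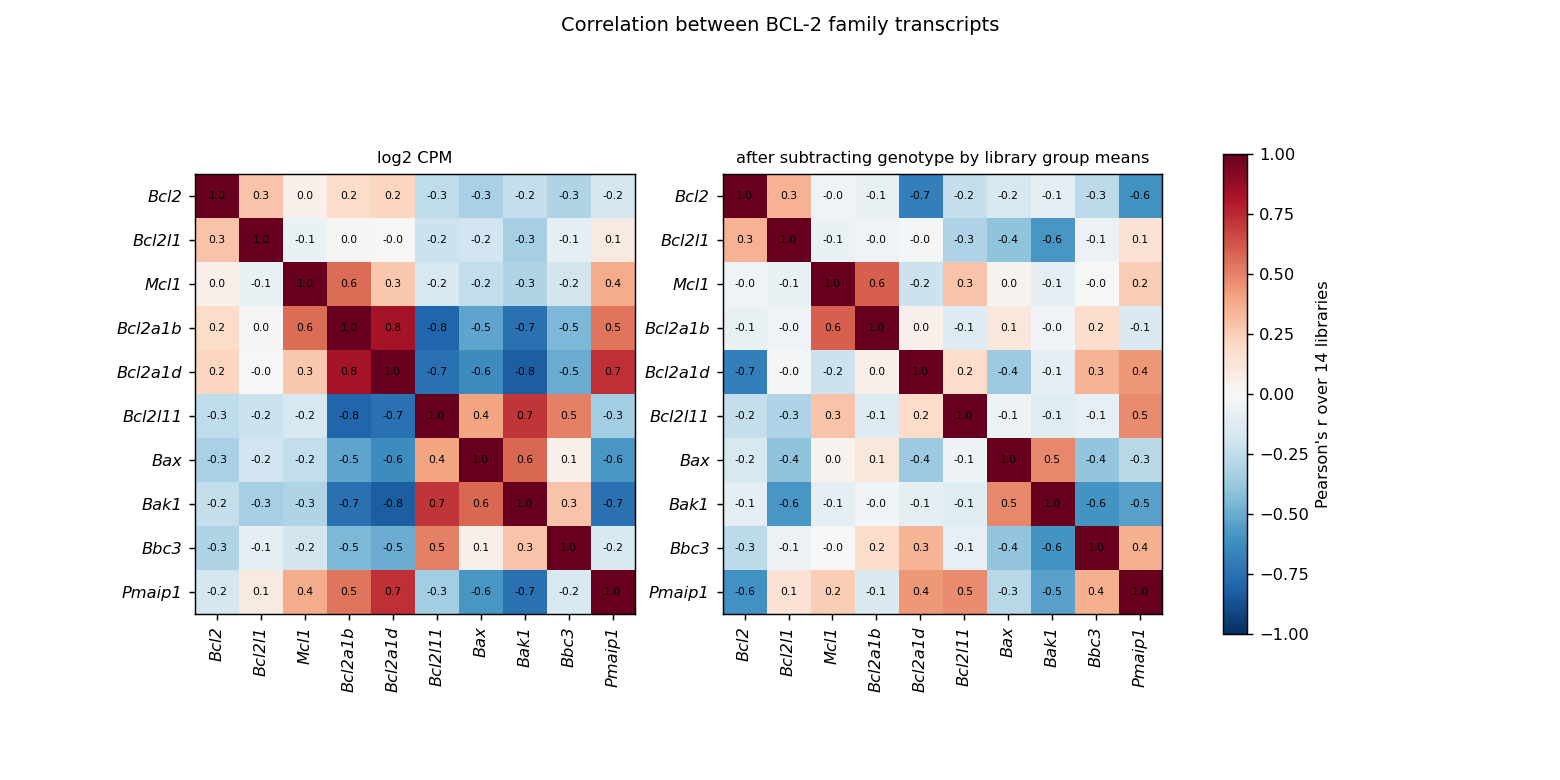
Pearson's r between members over 14 libraries (colour and number), on log2 CPM at left and after subtracting the mean of each genotype by library group at right. The block of positive values for Bcl2a1b with Bcl2a1d (0.83) and of negative values against Bak1 and Bcl2l11 on the left is near 0 on the right. Bcl2a1d was at the value for 0 reads in all 6 shallow libraries.

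Among the 5226 genes whose mean log2 CPM was at least 4, those most like 3 of the members after the same subtraction were named by rank. For Bcl2 they were Utrn at an r of 0.90, Eif4ebp2 at 0.89 and Zfp830 at 0.87 (0.60, 0.36 and 0.84 before the subtraction). For Mcl1 they were Aasdhppt, Ifi47 and Gnb1, at 0.85 each (0.84, 0.34 and 0.07 before). For Bcl2l11 they were Sugp1 at 0.95, Bnip3l at 0.87 and Sertad2 at 0.87 (0.41, 0.91 and 0.34 before). The top of 5226 values over 14 libraries is high by selection alone, and the values are given without a test.

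The rest of the apoptosis pathway gave no call by genotype either. Of 13 other BCL-2 family members tested, 7 differences were positive and 6 negative, with a median of 0.10 beside 0.04 over all genes, and 0 passed at an adjusted or an unadjusted 0.05. Bid, which links death receptors to mitochondria, averaged 4.75 ± 0.18 log2 CPM over wild-type and 4.97 ± 0.33 over Il1rn-/- libraries (SD, n = 7 each), a difference of 0.23 ± 0.17. Bnip3l, a mitophagy receptor, differed by -0.37 ± 0.22, which shrank to 0.01 once library group replaced the letter (called the covariate below). Of 16 genes of the apoptosome, caspases and their inhibitors, 10 were positive and 6 negative, with a median of 0.10, 0 called and 2 below an unadjusted 0.05. Those were Cycs, which encodes cytochrome c, at -1.08 ± 0.51 (0.00 with the covariate) and Birc2, an inhibitor of apoptosis, at 0.46 ± 0.22 (0.14 with it). Casp9, the initiator caspase, differed by -0.54 ± 0.34.

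Mitochondrial outer membrane partners had 5 positive and 9 negative differences of 14, a median of -0.05 and 0 calls, and 1 gene below an unadjusted 0.05, the import receptor subunit Tomm22 at -0.31 ± 0.15 (-0.03 with the covariate). The genes of MCL-1 and BIM turnover had 5 positive and 7 negative of 12, a median of -0.13 and 0 calls at either level. Dynll1, the dynein light chain that binds BIM, differed by -0.31 ± 0.17, and Btrc, a ubiquitin ligase subunit, by 0.41 ± 0.25. The letter called 4 genes of each of these lists higher and 1 of the second lower in set b, beside 8.48% and 11.0% of all genes, and 12 genes of the whole table were left once library group was added. The 1 lower was Huwe1, the MCL-1 ubiquitin ligase, at -0.56 ± 0.15 (adjusted p 0.017). The kinase gene Gsk3b stood at 0.69 ± 0.19 (adjusted p 0.017) and Tomm20 at 1.94 ± 0.33 (adjusted p 0.001).

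In survival signalling by cytokines of the common gamma chain, 12 of 20 differences were positive and 8 negative, with a median of 0.05 and 0 calls. Pim2, a survival kinase, was the 1 gene below an unadjusted 0.05, at a mean of 4.67 ± 0.58 log2 CPM against 4.12 ± 0.51 (SD, n = 7 each), with 6 of 7 Il1rn-/- libraries below the mean of wild type. Its difference was -0.54 ± 0.20 with an adjusted p of 0.787, and -0.30 with the covariate. Il2ra, the IL-2 receptor alpha chain, differed by -0.22 ± 0.14, and was higher in set b by 0.66 ± 0.14 (adjusted p 0.005), as was Il2rb by 0.89 ± 0.19 (adjusted p 0.005). In all, the letter called 5 of the 20 genes of this list higher and 4 lower in set b, beside 8.48% and 11.0% of all genes. The list median was -0.20 beside -0.11 over all genes. Library group, which overlaps the letter, was not a term in these calls.

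The genes of p53 and its targets, a pathway that induces Bbc3, Pmaip1 and Bax, had 13 positive and 6 negative differences of 19, a median of 0.11 and 0 calls. Trp53 itself was the 1 gene below an unadjusted 0.05, at -0.34 ± 0.16, or -0.05 with the covariate. NF-kB survival targets, the class to which the A1 genes and Bcl2l1 belong, had 11 positive and 2 negative of 13, a median of 0.24 and 0 calls, and with the covariate 5 positive and 8 negative with a median of -0.07. Traf2, an adaptor of TNF receptors, was the 1 gene below an unadjusted 0.05, at 0.53 ± 0.21 (0.33 with the covariate), with 7 of 7 Il1rn-/- libraries above the mean of wild type.

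Stress and immediate early genes, which respond to handling as well as to signals, had 16 positive and 6 negative differences of 22, a median of 0.22 and 0 calls, and 6 positive and 16 negative with the covariate, at a median of -0.09. Their median was -0.48 within set a and 1.01 within set b, opposite signs as for Pmaip1. The medians of other pathway lists changed sign likewise, from -0.17 to 0.46 for p53 targets and -0.14 to 0.44 for NF-kB targets. So did those of the integrated stress response (-0.27 to 0.32) and, by less, the apoptosome list (-0.067 to 0.027). Changes of sign the other way were seen for MCL-1 and BIM turnover (0.021 to -0.24) and signalling by gamma chain cytokines (0.063 to -0.004). The part of any of these lists in the values of Pmaip1 was not tested. Hspa1b, a heat shock protein gene at a mean of -1.99 log2 CPM in wild type, near the lowest value, differed by 2.79 ± 0.90 (unadjusted p 0.006, adjusted p 0.787), and Egr1, an immediate early factor, by -0.54 ± 0.24. In the integrated stress response, which can induce Pmaip1 and Bbc3, 6 of 11 were positive and 5 negative, with a median of 0.20 and 0 calls at either level. Trib3, a pseudokinase of this response, had 7 of 7 Il1rn-/- libraries below the mean of wild type, at -0.78 ± 0.40 (adjusted p 0.787).

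The sorted identity was checked on markers. All 8 regulatory T cell markers were detected in all 14 libraries, with Foxp3 at a mean of 8.57 log2 CPM, and their summed level was 1944 to 3051 CPM in wild type and 1983 to 3201 in Il1rn-/-. B cell markers, of which 10 of 10 are in the table, summed to 29.3 to 81.0 and 19.2 to 73.0 CPM, with Cd79a, Cd79b, Ms4a1, Cd22 and Cr2 detected in all 14 libraries and Pax5 at 0 in 7. Monocyte and macrophage markers (7 of 10 in the table) summed to 138 to 259 and 167 to 449 CPM, with Ctss at a mean of 7.59 log2 CPM, Lyz2 at 2.74 and Cd14 at 0 in 10 libraries. Neutrophil markers (4 of 10) summed to 0 to 6.03 and 0 to 6.73 CPM, from 5 to 26 reads a marker over all libraries. Dendritic cell markers (6 of 10) summed to 57.3 to 309 and 55.2 to 149 CPM, and CD8 T and NK cell markers (7 of 9) to 43.0 to 95.7 and 51.3 to 77.4 CPM. Reads over all libraries were 2392 for Cd74, 1318 for H2-Ab1 and 886 for H2-Aa, but 35 for Xcr1, 31 for Zbtb46 and 27 for Siglech. By library group, the median sums in deep and shallow libraries were 59.3 and 32.4 CPM for B cell, 189.6 and 199.8 for monocyte and macrophage, 0.107 and 4.50 for neutrophil, 93.3 and 116 for dendritic cell and 52.8 and 77.8 for CD8 T and NK cell markers. For regulatory T cell markers they were 2391 and 2968 CPM. The B cell sum was thus higher in the deep libraries by its median, as Bcl2a1b was, whereas the medians of the other lists were higher in the shallow ones. The B cell ranges overlapped, at 19.2 to 81.0 CPM in deep and 22.7 to 60.9 CPM in shallow libraries. The neutrophil ranges did not, at 0 to 1.35 CPM in deep and 2.02 to 6.73 CPM in shallow libraries. Of 9 tested B cell markers, 3 were called lower in set b and 0 higher, beside 11.0% and 8.48% of all genes. Of the other lists, 3 of 8 regulatory T cell markers were called higher and 1 lower in set b. Higher too were 1 of 2 tested neutrophil and 1 of 5 tested CD8 T and NK cell markers. The ranges overlapped between genotypes for each list, and the part of other cells in the members' values was not tested.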

How the data were processed

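Per the labels' protocols, Cuffquant 2.2.1 quantified transcripts in Smart-Seq2 libraries of sorted cells. Cuffnorm, Cufflinks 2.2.1, TopHat2 2.0.10 and BWA are named in the submitters' processing notes. The tool behind the final table and its genome build are not given in the sources used, nor are its annotation and use of strand. The authors deposited log2 CPM values with a prior count. All values were whole reads within 0.001 once unlogged. The unlogged values summed to 619210 to 1449664 per library, where plain CPM would give 1 total, so a further scaling per library is present that the sources used here do not give.

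Tests covered the 12329 of 14449 genes (165 without a symbol) that exceeded a CPM of 1 in 3 or more libraries, with limma 3.58.1 in R 4.3.3: intensity trend, genotype and title letter as terms, two-sided moderated statistics, Benjamini-Hochberg adjustment over all genes at 0.05. A model of 4 groups gave contrasts within and between sets. All 10 members passed the filter. The members and gene lists were chosen with earlier results of these data known, so the lists are described by counts and medians and not tested. Named genes are the members, up to 3 genes per list by the smallest p for genotype and up to 2 for the letter, and the 3 nearest genes by correlation; not all of these are printed. Libraries with over 50% of reads in Rn45s were called shallow, and 20 reads or more were called Y-linked transcripts present. Promoters came from RefSeq (GRCm38.p6), and transcript sequences and lengths from GENCODE M21. The 14 member windows are those of 9 of the 10 members, with Pmaip1 left out, so its windows are in none of the member counts. The NF-kB and p53 consensus sequences were searched by name on both strands, with overlapping matches counted once per window. Python 3.11.15 was used otherwise. The genotype fit alone was tried on simulated data, which held no effect of set or library group, and the other steps were not simulated. Alternatives covered the filter, prior count, scaling, variance model, library weights, covariates, subsets and each library left out.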

Additional observations from a re-analysis of the deposited data

How the results depend on the processing

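Of the genotype differences of the 10 members, those of Bcl2a1b and Bcl2l11 kept their sign under all alternatives run, and no member passed the adjusted threshold in any of them. For the genotype count, 0 genes were called except with set a alone (1 gene), deep libraries alone (2) and shallow libraries alone (13). Within set b, 3 genes were called with the total taken without Rn45s. The letter called 12 genes with the library group added and 0 with the group and Y-linked transcripts. Reversed genotype differences with the total taken without Rn45s were -0.072 for Bcl2l1, and -0.033 also without mitochondrial genes. With library weights they were -0.047 for Bcl2l1, -0.068 for Bcl2a1d and -0.27 for Pmaip1, and with voom -0.28 for Bcl2a1d and -0.12 for Pmaip1. With set a alone they were -0.15 for Bcl2l1, -0.092 for Mcl1, -0.85 for Bcl2a1d, 0.36 for Bax, 0.39 for Bak1 and -0.89 for Pmaip1, and with set b alone 0.25 for Bcl2. With the library group in place of the letter they were -0.49 for Bcl2a1d and -0.20 for Pmaip1, and with both -0.12 for Bcl2l1, -0.45 for Bcl2a1d, 0.50 for Bak1 and -0.40 for Pmaip1. In deep libraries alone they were -0.84 for Bcl2a1d, 0.25 for Bax and -0.46 for Pmaip1, and in shallow ones alone 0.11 for Bcl2, -0.088 for Bcl2l1, 0.62 for Bak1 and 0.15 for Bbc3, with no value for Bcl2a1d, which had 0 reads there. With the group and Y-linked transcripts Bcl2a1d was at -0.45. In libraries without Y-linked transcripts the values were -0.15 for Bcl2l1, -0.19 for Bcl2a1d, 0.26 for Bak1 and 0.070 for Bbc3. The difference between sets for Bcl2l11 was -0.13 without Rn45s and -0.059 with voom. The letter with the library group gave 0.19 for Bcl2, 0.29 for Bcl2a1b, -0.055 for Bax, -2.97 for Bak1 and 0.84 for Pmaip1. With Y-linked transcripts as well it gave 0.66 for Bcl2, 0.49 for Bcl2a1b, -0.49 for Bcl2l11, -2.41 for Bak1 and -0.47 for Bbc3. The cause of these reversals was not tested. The alternatives with Y-linked transcripts were chosen after seeing the data.

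With each library left out in turn, genotype differences ranged from -0.16 to 0.17 for Bcl2, -0.044 to 0.10 for Bcl2l1 and -0.063 to 0.45 for Pmaip1. The letter ranged from -0.43 to 0.046 for Bcl2 and -0.083 to 0.072 for Mcl1. Set a differences ranged from -0.85 to 0.042 for Bcl2, -0.27 to 0.032 for Mcl1 and -0.13 to 0.51 for Bcl2a1b, and set b from -0.50 to 0.20 for Bbc3. The difference between sets ranged from -0.11 to 0.23 for Bcl2l11 and -0.066 to 0.69 for Bbc3. Counts ranged from 0 to 1 in set a, 0 to 230 in set b and 1355 to 3376 for the letter, and the genotype balance from 0.52 to 1.06. With all libraries kept, the 4 other definitions of the balance gave a lower genotype difference, 0.36 to 0.52. The 230 came without Il1rn-/- 2-b, where Bcl2a1b within set b passed (adjusted p 0.044). The numbers in the titles did not pair the libraries: same-numbered libraries had correlations of their deviations of -0.23 to 0.04, and with the replicate block 0 genes were called and 633 were below an unadjusted 0.05. Low counts limit the values of Bcl2a1d, Bak1 and Bbc3, which had at most 33 reads in any library. For Bak1 the shallow libraries held more reads (127 in all) than the deep ones (46).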
